A study of Arabidopsis thaliana with 12 samples.

Results

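The genes described here encode proteins of the large, 60S subunit of the cytosolic ribosome of Arabidopsis thaliana, together with P0, the protein that anchors its stalk. A list of 60 loci was used, and a locus counted as measured where a probe set carried that 1 gene in the array's annotation. This held for 40 of the 60, each with 1 probe set, and 20 protein families were covered. In 15 families at least 2 paralogs were measured, which gave 25 pairs of paralogs of the same protein. The other 20 loci, among them all listed genes of RPL3, RPL5, RPL10, RPL11, RPL23a and RPL24, have no probe set of their own in the annotation and were not analysed here.

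A ribosome holds 1 copy of nearly every one of these proteins, and in plants each is encoded by a small family of genes whose products differ little. In yeast, the counterparts of RPL4 and RPL17 line the tunnel through which the new protein leaves, and that of RPL26 lies near its exit. The counterpart of RPL8 lies near the site of peptide bond formation, and that of RPL19 contributes to a bridge to the small subunit. That of RPL10a forms one stalk, and those of RPL12 and P0 form the base of the other, to which translation factors bind. TOR is a protein kinase that couples nutrient supply to growth in fungi, animals and plants, and the making of ribosomes is one of the processes it is known to promote. Protein names follow the usual nomenclature of the loci, and single genes are called by locus.

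The study asked which transcripts respond early to glucose through TOR when seedlings leave the quiescence that follows the use of their seed reserves. Whole seedlings, 3 days old and grown in liquid medium under low light, formed 4 groups of 3 arrays: an estradiol-inducible RNAi line against tor (tor) given 15 mM glucose for 2 h, tor without glucose, wild type (WT, Col-0) given the same glucose, and WT without glucose. Silencing in the tor line depends on the inducer, and the sources used here do not state whether it was also given to WT. The annotation names no probe set for TOR, so the loss of its transcript could not be examined. Expression is given as log2 values summarised by the authors with RMA, on which a difference of 1 is a factor of 2, and values of different probe sets were not set against each other, only their changes.

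Both tor arrays numbered 1 stood apart from the other tor arrays in these genes. Over all probe sets, the deviations of these 2 arrays from their group means correlated at 0.863. For the tor arrays numbered 2 and 3 the correlation was 0.678 and 0.811, so shared deviations are not particular to these genes. The median over the 40 genes was 11.21, 10.74 and 10.54 on the tor arrays with glucose numbered 1, 2 and 3, and 11.24, 10.58 and 10.28 on those without glucose. On WT arrays it was 12.09, 12.14 and 12.09 with glucose and 11.58, 11.29 and 11.22 without. How often array 1 was the highest of its 3 was counted in these 40 genes and not in all probe sets. Array 1 was the highest for 34 genes in tor with glucose and for 38 in tor without, against 10 in WT with glucose and 30 in WT without. A list of 5 measured genes of dividing cells (AUR1, AUR2, AUR3, PRL and ICU2, of 9 listed) moved with this, with means of 6.87, 5.42 and 5.29 in tor with glucose, 6.91, 5.54 and 5.39 in tor without, 7.77, 7.59 and 7.41 in WT with glucose, and 7.14, 6.55 and 6.50 in WT without. Its part in the results was not tested, and in whole seedlings fewer cells of a type and less RNA per cell cannot be told apart. The 3 measured shoot markers of 7 (RCA, LHCB4.1 and LHCB4.2) averaged between 13.29 and 13.62 on every array. The 2 measured root markers of 4 (EXPA7 and EXPA18) averaged 5.02 to 5.21 on tor arrays and 5.59 to 6.74 on WT arrays.

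**Figure D1:**
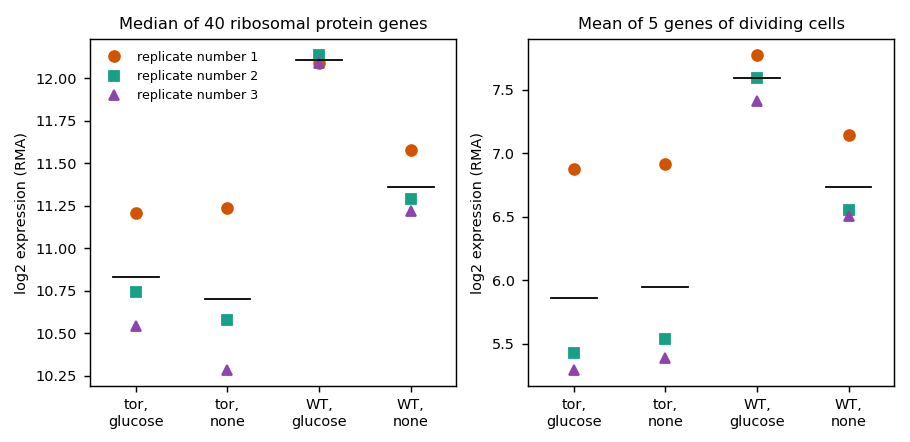
Median log2 expression (RMA) of the 40 ribosomal protein genes and mean log2 expression of 5 genes of dividing cells on each of the 12 arrays, by group. Symbols mark the replicate number and the black line is the mean of the 3 arrays. Array 1 lies above the other arrays in both tor groups in both panels, while the WT arrays with glucose lie above all other groups.

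In WT seedlings, 2 h of glucose raised 21 of the 40 genes and lowered 0, and 19 did not pass the test (limma, Benjamini-Hochberg adjusted p under 0.05 over all 22746 probe sets). Of all probe sets, 13.5 percent rose and 10.5 percent fell. The median change of the 40 genes was 0.66, against -0.01 over all probe sets, and it was 0.56, 0.66 and 0.78 between the arrays of the same number (SD 0.11). Single changes ranged from -0.41 to 2.50. For 33 genes every array with glucose lay above every array without, which held for 21 percent of all probe sets, and for 1 gene (AT2G47570, RPL18) every array lay below, which held for 18.1 percent. Of the 19 genes that did not pass, 6 had an adjusted p between the 0.05 used and 0.1. When the model held the replicate number as a block, 28 rose and 1 fell, where 18.9 and 15 percent of all probe sets did. The added genes that rose with the block were AT2G01250, AT2G47610, AT5G22440, AT5G27850, AT5G48760, AT4G02230 and AT1G02830, and the one that fell was AT3G13580 (adjusted p 0.0355). With each array centred on its median, which moves the median change of all probe sets to -0.10, 17 rose and 1 fell, where 11.1 and 13.3 percent of all probe sets did, the one that fell again being AT3G13580 (adjusted p 0.0403), which also fell without WT array 1 without glucose (adjusted p 0.0316). The count of genes that rose was 8 without the WT array 2 that had no glucose, 9 without array 3 of that group, and 12 and 10 without WT arrays 2 and 3 with glucose, and in these fits between 9.57 and 10.3 percent of all probe sets rose.

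**Figure D2:**
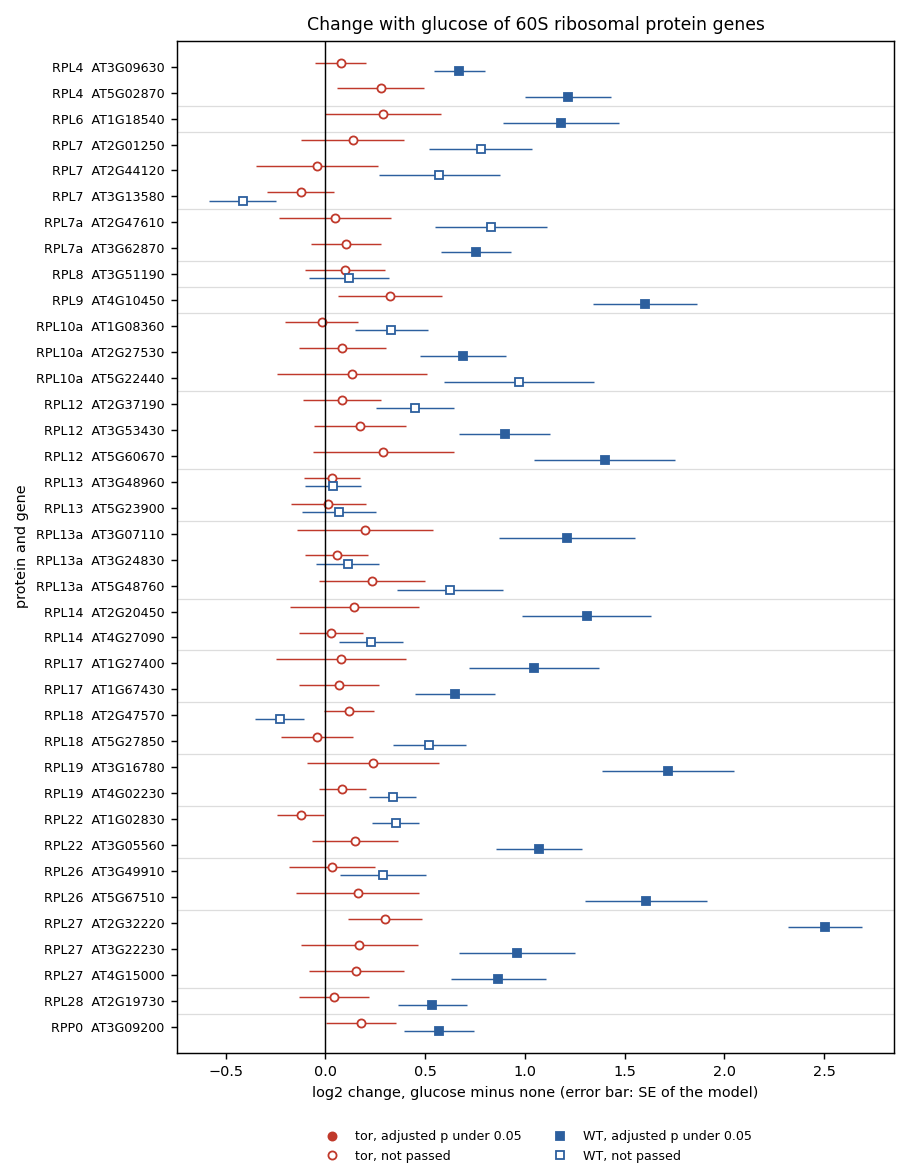
Log2 change with glucose (glucose minus none) of 38 genes, grouped by protein, in tor (red circles) and WT (blue squares). Error bars are standard errors of the model and filled symbols passed at an adjusted p under 0.05. All tor symbols are open and lie between -0.12 and 0.32, while 20 WT symbols are filled and reach 2.50.

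The largest change with glucose in WT was that of AT2G32220, 1 of 3 measured genes of RPL27. It read 9.25, 9.52 and 9.70 in WT seedlings given glucose, against 7.14, 6.99 and 6.83 in those without. Every array with glucose lay more than 2 units above the highest without, and the change of 2.50 ± 0.19 (SE of the model, here and below) had an adjusted p of 3.36e-05. The other RPL27 genes, AT3G22230 and AT4G15000, rose by 0.96 ± 0.29 and 0.87 ± 0.24 (adjusted p 0.0357 and 0.0227).

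Among the proteins of the exit tunnel, both RPL4 genes, both RPL17 genes and 1 of 2 RPL26 genes rose. AT5G67510 (RPL26) read 12.05, 11.87 and 12.25 in WT with glucose, against 10.86, 10.23 and 10.27 without, and its change was 1.61 ± 0.31 (adjusted p 0.00355). Every array with glucose lay more than 1 unit above the highest without. For the other RPL26 gene, AT3G49910, the values were 13.21, 13.13 and 13.33 with glucose and 12.85, 12.95 and 13.00 without, and the change of 0.29 ± 0.22 did not pass (adjusted p 0.414). The RPL4 genes AT5G02870 and AT3G09630 rose by 1.22 ± 0.22 and 0.67 ± 0.13 (adjusted p 0.00243 and 0.00353), and the RPL17 genes AT1G27400 and AT1G67430 by 1.05 ± 0.33 and 0.65 ± 0.20 (adjusted p 0.0390 and 0.0384). AT3G51190, the measured gene of RPL8, had a change of 0.12 ± 0.20 that did not pass (adjusted p 0.769).

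Of the genes for the stalks, 4 of 7 rose. AT5G60670 (RPL12) read 12.20, 12.16 and 12.43 in WT with glucose, against 11.25, 10.63 and 10.71 without, a change of 1.40 ± 0.35 (adjusted p 0.0153). Its paralog AT3G53430 rose by 0.90 ± 0.23 (adjusted p 0.0158), and AT2G37190 had a change of 0.45 ± 0.20 that did not pass (adjusted p 0.130). Of RPL10a, AT2G27530, also known as PGY1 from a leaf shape mutant, rose by 0.69 ± 0.22 (adjusted p 0.0407). AT5G22440 and AT1G08360 had changes of 0.97 ± 0.38 and 0.33 ± 0.18 that did not pass (adjusted p 0.0889 and 0.243). The P0 gene AT3G09200 rose by 0.57 ± 0.18 (adjusted p 0.0380).

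AT3G16780 (RPL19, of the bridge to the small subunit) had the second largest change of the 40. It read 11.11, 11.14 and 11.47 in WT with glucose, against 9.85, 9.31 and 9.41 without, a change of 1.72 ± 0.33 (adjusted p 0.00372). The other measured RPL19 gene, AT4G02230, read 11.23, 11.34 and 11.51 with glucose and 10.79, 11.10 and 11.19 without. Its arrays did not overlap either, by a margin of under 0.1, and its change of 0.34 ± 0.12 did not pass (adjusted p 0.0609).

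Among the remaining families, AT4G10450 (RPL9), AT2G20450 (RPL14), AT3G07110 (RPL13a), AT1G18540 (RPL6) and AT3G05560 (RPL22) rose by more than 1. AT4G10450 read 11.35, 11.26 and 11.63 in WT with glucose, against 9.95, 9.72 and 9.75 without, a change of 1.60 ± 0.26 (adjusted p 0.00147). AT2G20450 read 10.55, 10.70 and 10.74 with glucose, against 9.62, 9.24 and 9.21 without, a change of 1.31 ± 0.32 (adjusted p 0.0138). In neither gene did an array with glucose come within 0.9 of one without. AT3G07110, AT1G18540 and AT3G05560 changed by 1.21 ± 0.34, 1.18 ± 0.29 and 1.07 ± 0.21 (adjusted p 0.0252, 0.0136 and 0.00457). Smaller rises passed in AT3G62870 (RPL7a, 0.76) and AT2G19730 (RPL28, 0.54), among others.

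Among the lowest changes with glucose in WT were those of a gene each of RPL7, RPL18 and RPL13, none of which passed. AT3G13580 (RPL7) read 9.93, 10.09 and 9.84 in WT with glucose, against 10.07, 10.53 and 10.50 without. These arrays overlap by 1 value, and the change was -0.41 ± 0.17 (adjusted p 0.105). AT2G47570 (RPL18) read 4.28, 4.49 and 4.51 with glucose, against 4.91, 4.52 and 4.54 without, a change of -0.23 ± 0.12 (adjusted p 0.228). The groups of AT3G48960 (RPL13) overlapped, with 4.64, 4.30 and 4.42 against 4.51, 4.36 and 4.38, a change of 0.04 ± 0.14 (adjusted p 0.897). AT2G47570, AT3G48960 and AT1G02830 (RPL22) are the 3 genes with a mean below 5, a level close to the lower quartile of all probe sets on each array (4.48 to 4.70).

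Of the 21 calls in WT, 8 were kept whichever of the 12 arrays was left out, namely those of AT2G32220, AT3G05560, AT3G09630, AT3G16780, AT3G62870, AT4G10450, AT5G02870 and AT5G67510. At this threshold, members of 1 family did not pass together in most cases, which does not by itself show that their changes differ. In RPL7a, AT2G47610 changed by 0.83 and did not pass (adjusted p 0.0536), while AT3G62870 passed with 0.76. With the replicate number as a block, all measured genes of RPL7a, RPL19 and RPL22 passed as well. In 3 of the 15 families with paralogs (RPL4, RPL17 and RPL27) all measured genes rose, in 9 some did, and in 3 (RPL7, RPL13 and RPL18) none did.

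In tor seedlings, 0 of the 40 genes passed for the same glucose treatment in either direction, as did 0 percent of all probe sets. An unadjusted p under 0.05 was reached by 0 of the 40 in limma, and by 0 with the replicate block. Other fits gave more, namely 3 with the block within each genotype and 5 with the 2 groups alone and a block. It was 9 without tor array 1 without glucose and 5 without all 4 arrays numbered 1. The share of all probe sets at an unadjusted p was not counted. At the adjusted p, the fit with the replicate block again called 0 of the 40, with 0 percent of all probe sets in both directions. The median change was 0.10, and 34 of 40 changes were above 0. Between arrays of the same number the median was 0.01, 0.08 and 0.23. It was 0.31 without array 1 of the tor seedlings without glucose, -0.06 without array 3 of that group, and -0.09 without tor array 1 with glucose, so its sign rested on single arrays. The standard errors of these changes, 0.12 to 0.38, are those of WT, since the model shares 1 estimate of the spread.

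The highest changes with glucose in tor were those of AT4G10450 (0.32 ± 0.26), AT2G32220 (0.30 ± 0.19), AT1G18540 (0.29 ± 0.29), AT5G60670 (0.29 ± 0.35), AT5G02870 (0.28 ± 0.22) and AT3G16780 (0.24 ± 0.33). AT2G32220 read 7.10, 6.59 and 6.80 in tor with glucose, against 6.74, 6.66 and 6.18 without. AT4G10450 read 10.04, 9.28 and 9.38 with glucose, against 9.84, 9.02 and 8.87 without. In both genes the 2 groups overlapped, and array 1 was the highest of its group. The lowest changes were those of AT3G13580 (-0.12 ± 0.17), AT1G02830 (-0.12 ± 0.12), AT5G27850 (-0.04 ± 0.18) and AT2G44120 (-0.04 ± 0.30). The arrays overlapped for 38 of the 40 genes. The exceptions were AT4G02230, whose arrays with glucose lay above those without, as in 2.67 percent of all probe sets, and AT1G02830, whose arrays lay below, as in 2.37 percent. In AT4G02230 the 2 groups were 11.04, 11.03 and 11.07 against 10.98, 10.97 and 10.95.

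Across the 40 genes, the change with glucose in tor followed the order of that in WT (Pearson's r 0.755, Spearman's rho 0.773), which is a description over genes measured on the same arrays and not over replicates. The tor changes span less than the WT changes throughout. How far this order rests on single tor arrays was not tested. The median tor change went to -0.09 without tor array 1 with glucose and to -0.06 without tor array 3 without glucose.

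The difference of the glucose responses, tor minus WT, was tested directly. It passed for AT2G32220 alone, at -2.20 ± 0.26 (adjusted p 0.00314), a call that was kept whichever array was left out. A lower change in tor was called in 3.44 percent of all probe sets and a higher one in 1.93 percent, both at the adjusted p. An unadjusted p under 0.05 in limma was reached by 12 of the 40 genes, and the share of all probe sets at that threshold was not counted. The median difference of the 40 genes was -0.60, and it was -0.58, -0.69 and -0.60 when built from arrays of the same number (SD 0.06). The next largest differences were those of AT3G16780 (-1.48 ± 0.47, adjusted p 0.0971), AT5G67510 (-1.44 ± 0.43, adjusted p 0.0823) and AT4G10450 (-1.28 ± 0.37, adjusted p 0.0728). The difference was above 0 in 3 of the 40 genes, among them AT2G47570 at 0.35 and AT3G13580 at 0.29. Values just below 0 included -0.01 for AT3G48960, -0.02 for AT3G51190 and -0.05 for AT5G23900.

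With the replicate number as a block, 8 genes had a lower change in tor, where 8.04 percent of all probe sets did and 5.34 percent had a higher one. They were AT2G32220, AT3G16780, AT5G67510, AT4G10450, AT2G20450, AT5G02870, AT3G05560 and AT3G09630. With the block set within each genotype there were 25, where 11.8 percent of all probe sets had a lower change in tor and 8.2 percent a higher one. The count was 5 without tor array 1 with glucose, where 3.82 percent of all probe sets had a lower change. It was 7 without both tor arrays numbered 1 (3.25 percent) and 16 without all 4 arrays numbered 1 (7.25 percent).

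Without glucose, the genes were lower in tor than in WT in 13 cases and higher in 0, and 27 did not pass. Lower expression in tor was called in 8.66 percent of all probe sets and higher expression in 19.5 percent. The median difference, tor minus WT, was -0.56, against 0.08 over all probe sets. For 15 genes every tor array lay below every WT array, as in 14.4 percent of all probe sets, and for 0 genes every tor array lay above, as in 27.1 percent. Between arrays numbered 1 the median difference was -0.19, and between those numbered 2 and 3 it was -0.63 and -0.83.

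This count depended on the model and on single arrays more than the others. It was 26 with the replicate number as a block, where 13.7 percent of all probe sets were lower and 26.2 percent higher in tor, and 34 without both tor arrays numbered 1, where 11.9 percent of all probe sets were lower. With arrays centred on their medians 31 fell, while the median difference over all probe sets moved to -0.16 and 20.9 percent of them were lower and 10.3 percent higher in tor. A fit of the 2 groups alone called 4 (6.08 percent of all probe sets lower). Without tor array 1 of the group without glucose it was 30 (10.1 percent lower), and without tor array 2 or 3 of that group it was 2 (5.29 and 5.69 percent lower). Leaving out WT array 1, 2 or 3 without glucose gave 5, 6 and 6 (6.87, 6.49 and 6.27 percent of all probe sets lower).

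The 13 genes that were lower in tor without glucose included those of the stalk base, all 3 measured genes of RPL12 and that of P0. AT5G60670 (RPL12) had the lowest difference of the 40. It read 10.46, 9.44 and 8.99 in tor, against 11.25, 10.63 and 10.71 in WT, so that all tor arrays lay below all WT arrays, and the difference was -1.24 ± 0.35 (adjusted p 0.0246). AT3G53430 and AT2G37190, the other RPL12 genes, differed by -0.84 ± 0.23 and -0.70 ± 0.20 (adjusted p 0.0201 and 0.0223), and AT3G09200 of P0 by -0.52 ± 0.18 (adjusted p 0.0494). None of these RPL12 and P0 calls was kept in every fit that left out 1 array.

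The remaining calls included those of AT3G51190 (RPL8), AT2G44120 (RPL7), AT3G49910 (RPL26), AT5G23900 (RPL13), AT4G15000 (RPL27), AT3G05560 (RPL22) and AT2G19730 (RPL28), with differences between -0.59 and -0.90. The calls of AT3G51190 (-0.84 ± 0.20, adjusted p 0.0112) and AT5G23900 (-0.76 ± 0.19, adjusted p 0.0119) were kept whichever array was left out. AT3G07110 (RPL13a) had a difference of -0.94 ± 0.34 that did not pass (adjusted p 0.0617), and passed with the replicate number as a block (adjusted p 0.00873). The differences closest to or above 0 were those of AT1G02830 (0.13), AT2G47570 (0.08), AT3G13580 (-0.02), AT4G02230 (-0.06), AT1G67430 (-0.13) and AT5G02870 (-0.25), none of which passed.

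With glucose, 36 of the 40 genes were lower in tor than in WT, 1 was higher and 3 did not pass. Lower expression in tor was called in 16 percent of all probe sets and higher expression in 25.4 percent. The median difference was -1.09, against 0.08 over all probe sets, with values of -0.79, -1.23 and -1.36 between arrays numbered 1, 2 and 3. For 37 genes all tor arrays lay below all WT arrays, as in 20.6 percent of all probe sets, and for 1 they lay above, as in 32.8 percent. With the replicate number as a block 37 were lower and 1 higher, where 20.4 and 30.4 percent of all probe sets were. With arrays centred on their medians 38 were lower and 0 higher. This centring moves the median difference of all probe sets to -0.09, and 23.4 percent of them were lower and 16.9 percent higher. The calls of 30 genes were kept whichever array was left out. This comparison shares its WT arrays with glucose with the response to glucose in WT, so the 2 sets of values are not independent.

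AT2G32220 had the lowest difference with glucose. It read 7.10, 6.59 and 6.80 in tor, against 9.25, 9.52 and 9.70 in WT, a difference of -2.66 ± 0.19 (adjusted p 8.98e-06). Without glucose its values were 6.74, 6.66 and 6.18 in tor and 7.14, 6.99 and 6.83 in WT, a difference of -0.45 ± 0.19 that did not pass (adjusted p 0.0920). AT5G60670 (RPL12) read 10.47, 9.75 and 9.53 in tor with glucose, against 12.20, 12.16 and 12.43 in WT, a difference of -2.35 ± 0.35 (adjusted p 0.000571). All WT arrays of both genes lay more than 1.5 units above the highest tor array. AT5G67510 (RPL26), AT3G16780 (RPL19), AT3G07110 (RPL13a) and AT2G20450 (RPL14) followed with differences of -2.27, -2.23, -1.96 and -1.89 (adjusted p 0.000317, 0.000527, 0.00130 and 0.00118).

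The gene that was higher in tor was AT2G47570 (RPL18), with 4.78, 4.85 and 4.95 in tor with glucose, against 4.28, 4.49 and 4.51 in WT. Its arrays did not overlap and the difference was 0.43 ± 0.12 (adjusted p 0.0179), but its mean is one of the 3 below 5 and the call was lost with arrays centred on their medians (0.25, adjusted p 0.182), without WT array 1 with glucose (0.36, adjusted p 0.0677) and without tor array 3 with glucose (0.39, adjusted p 0.0653). The genes that did not pass were AT3G13580 (RPL7, 0.26 ± 0.17), AT3G48960 (RPL13, -0.27 ± 0.14) and AT4G02230 (RPL19, -0.31 ± 0.12, adjusted p 0.0546, which passed with the replicate number as a block, adjusted p 0.0330). The smallest differences among those that fell were those of AT1G02830 (RPL22, -0.34 ± 0.12) and AT3G24830 (RPL13a, -0.46 ± 0.16).

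**Figure D3:**
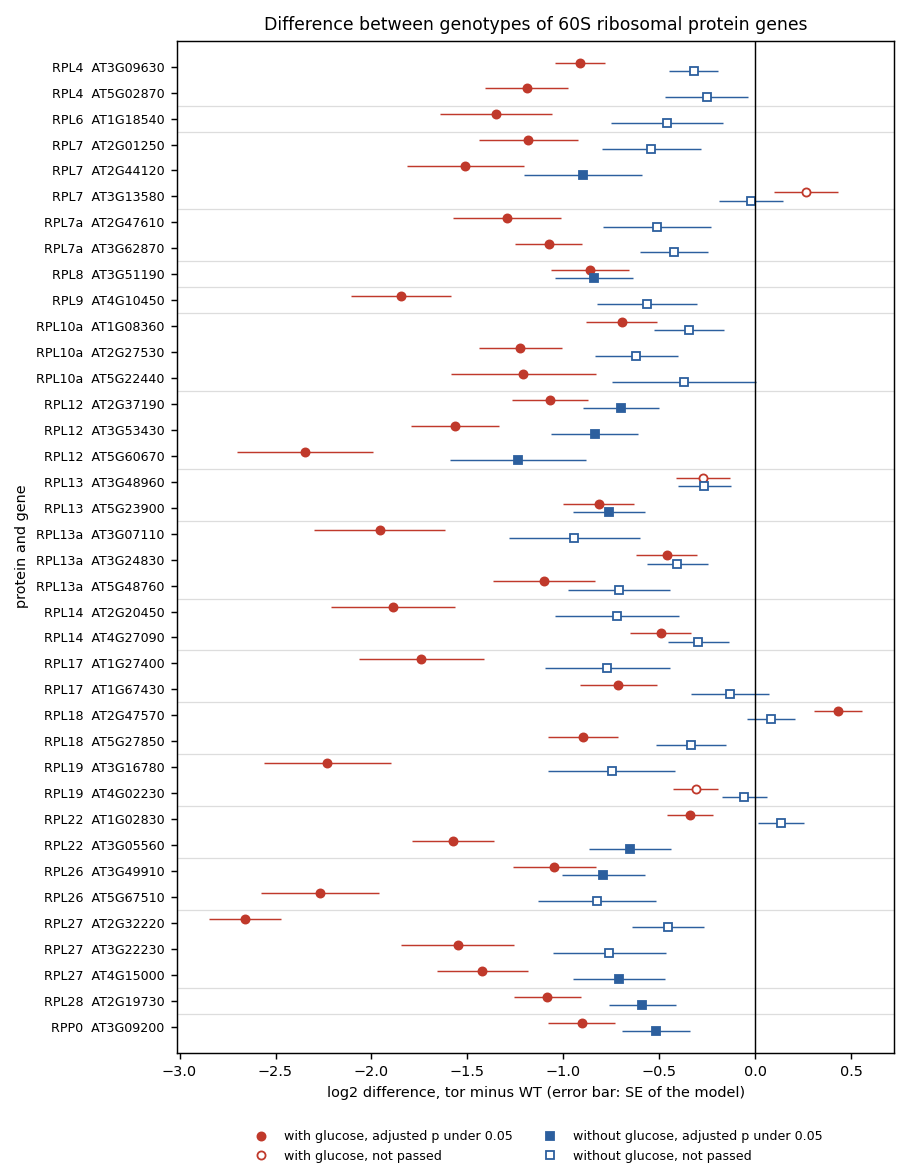
Log2 difference between genotypes (tor minus WT) of 38 genes, grouped by protein, with glucose (red circles) and without (blue squares). Error bars are standard errors of the model and filled symbols passed at an adjusted p under 0.05. With glucose 34 genes are filled below 0 and reach -2.66, and without glucose 11 are filled.

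Paralogs of one protein were compared through the difference of their log2 values on each array, called the paralog ratio, whose level depends on the probes but whose change does not compare one probe set with another. Within each of the 25 pairs the gene with the larger change with glucose in WT was put first, so that the sign of the WT difference is set by this order. The change with glucose in WT differed between the paralogs by more than 0.5 in 17 pairs and by more than 1 in 7. Of the 22 pairs in which both genes have a mean of 5 or more these were 15 and 7. In 0 of the 25 pairs did the ratio on every tor array with glucose lie above that on every tor array without, and in WT this held for 20 pairs. Ratios of other gene pairs were not counted, so no such share stands beside these counts. Of single probe sets, 21 percent lay above and 18.1 percent below in WT, and 2.67 and 2.37 percent in tor. With 3 arrays against 3 an exact test cannot go below a p of 0.1, and whether the paralogs' difference itself differs between the genotypes was not tested. Pairs of 1 family share genes and are not independent of each other.

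**Figure D4:**
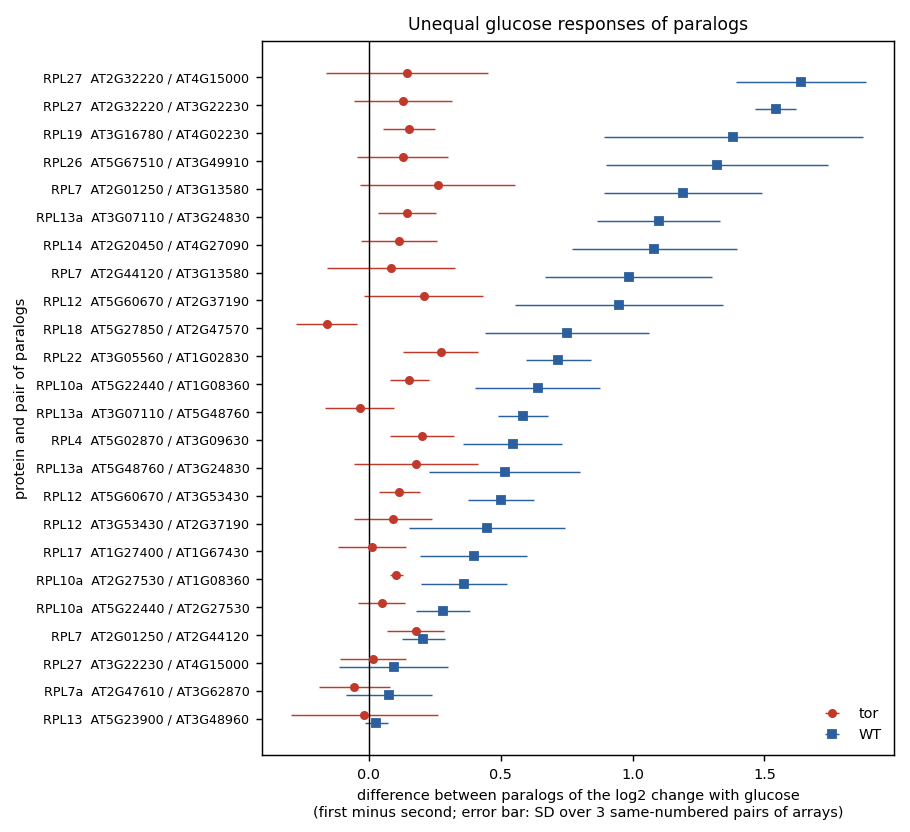
Difference between paralogs of the log2 change with glucose for 24 pairs, in tor (red circles) and WT (blue squares), with the SD over the 3 pairs of same-numbered arrays as error bars. The gene named first has the larger change in WT. WT values run from 0.03 to 1.64, and tor values from -0.16 to 0.27, and the pairs of RPL13, RPL18 and RPL22 each hold a gene with a mean below 5.

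The largest such differences were within RPL27, where the change of AT2G32220 exceeded that of AT4G15000 by 0.15 ± 0.31 in tor and by 1.64 ± 0.25 in WT (SD over 3 same-numbered pairs of arrays, as for the pairs below). It exceeded that of AT3G22230 by 0.13 ± 0.19 in tor and by 1.54 ± 0.08 in WT. In tor, AT4G15000 read 10.73, 10.12 and 9.93 with glucose and 10.63, 9.99 and 9.70 without, and AT3G22230 read 9.70, 8.68 and 8.93 with glucose and 9.56, 8.66 and 8.58 without. In both genes the tor arrays with and without glucose overlapped. AT4G15000 read 11.62, 11.71 and 11.71 in WT with glucose, against 10.90, 10.82 and 10.73 without. AT3G22230 read 10.54, 10.64 and 10.77 in WT with glucose, against 9.89, 9.73 and 9.46 without. In WT these arrays did not overlap, and the changes of the 2 genes differed by 0.09 ± 0.21.

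In RPL19, the change of AT3G16780 exceeded that of AT4G02230 by 0.15 ± 0.10 in tor and by 1.38 ± 0.49 in WT. AT3G16780 read 9.63, 8.75 and 8.65 in tor with glucose and 9.51, 8.54 and 8.27 in tor without, so array 1 lay far above the others in both groups, while AT4G02230 stayed between 10.95 and 11.07 on all 6 tor arrays. In RPL26, the change of AT5G67510 exceeded that of AT3G49910 by 0.13 ± 0.17 in tor and by 1.32 ± 0.42 in WT. In tor, AT5G67510 read 10.30, 9.44 and 9.63 with glucose and 10.29, 9.41 and 9.18 without. AT3G49910 read 12.58, 11.99 and 11.96 in tor with glucose and 12.63, 11.97 and 11.83 without. Both RPL26 genes were highest on array 1 in both tor groups.

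In RPL7, 2 of the 3 genes lay below their WT values in tor and the third did not. AT2G44120 read 11.14, 10.44 and 10.09 in tor with glucose and 11.27, 10.46 and 10.06 in tor without, and AT2G01250 read 11.81, 11.05 and 11.08 with glucose and 11.76, 11.01 and 10.76 without. AT2G44120 lay below its WT values on all tor arrays in either treatment, and AT2G01250 on all but array 1 without glucose. AT3G13580 read 10.28, 10.41 and 9.95 in tor with glucose and 10.23, 10.57 and 10.22 in tor without, a range that overlaps that of WT.

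The RPL7 genes also differed in their change with glucose in WT. AT2G01250 read 12.59, 12.51 and 12.39 in WT with glucose, against 11.86, 11.70 and 11.59 without, and AT2G44120 read 12.12, 12.15 and 11.93, against 11.63, 11.46 and 11.39. Neither change passed (0.78 ± 0.26, adjusted p 0.0505, and 0.57 ± 0.30, adjusted p 0.224), although the arrays of neither gene overlapped. The changes of AT2G01250 and AT2G44120 exceeded that of AT3G13580, whose WT values were given above, by 0.26 ± 0.29 and 0.08 ± 0.24 in tor and by 1.19 ± 0.30 and 0.98 ± 0.32 in WT.

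In RPL13a, the change of AT3G07110 exceeded that of AT3G24830 by 0.14 ± 0.11 in tor and by 1.10 ± 0.23 in WT. In tor, AT3G07110 read 11.23, 10.28 and 10.25 with glucose and 11.20, 10.11 and 9.86 without, and AT3G24830 read 12.60, 12.29 and 12.14 with glucose and 12.59, 12.28 and 11.99 without. All of these overlapped, with array 1 the highest in each group. AT3G07110 read 12.59, 12.41 and 12.63 in WT with glucose, against 11.57, 11.14 and 11.28 without, which do not overlap. AT3G24830 read 12.76, 12.79 and 12.87 in WT with glucose and 12.58, 12.72 and 12.78 without, which overlap. AT5G48760, the third measured gene, had a change of 0.63 ± 0.27 in WT that did not pass (adjusted p 0.120).

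In RPL14, the change of AT2G20450 exceeded that of AT4G27090 by 0.11 ± 0.14 in tor and by 1.08 ± 0.31 in WT. In tor, AT4G27090 read 12.19, 11.86 and 11.69 with glucose and 12.20, 11.81 and 11.63 without, while AT2G20450 read 9.36, 8.56 and 8.42 with glucose and 9.42, 8.35 and 8.14 without. AT4G27090 read 12.38, 12.43 and 12.41 in WT with glucose, against 12.17, 12.28 and 12.09 without, a narrow gap, and its change of 0.23 ± 0.16 did not pass (adjusted p 0.380). Among pairs without a gene below 5, small differences between paralogs in WT were those of RPL7a (AT2G47610 and AT3G62870, 0.08 ± 0.16) and the RPL27 pair without AT2G32220. The RPL13 gene AT5G23900, one of the lowest changes in WT, read 11.89, 11.78 and 11.86 in WT with glucose, against 11.68, 11.85 and 11.79 without. These arrays overlapped, and the change was 0.07 ± 0.19 (adjusted p 0.865).

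**Figure D5:**
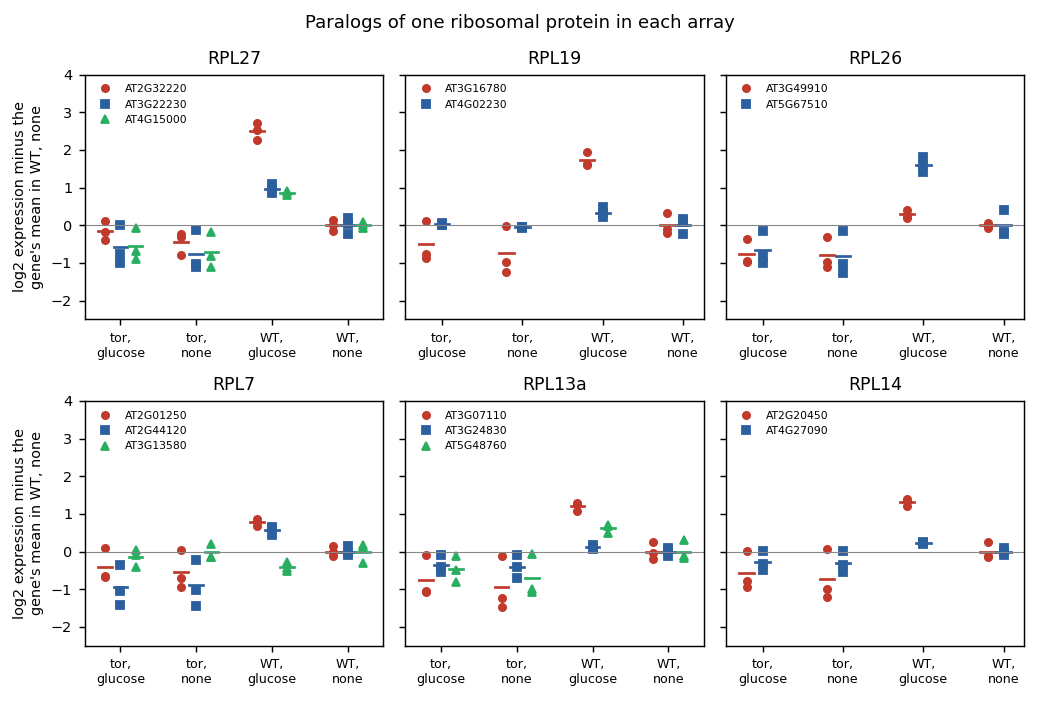
Log2 expression minus the gene's own mean in WT without glucose, for the measured genes of RPL27, RPL19, RPL26, RPL7, RPL13a and RPL14 on each array. Points are arrays, the colour marks the gene and the line is the group mean. Paralogs lie apart in WT with glucose, by 1.64 between AT2G32220 and AT4G15000 of RPL27, and AT4G02230 of RPL19 and AT3G13580 of RPL7 stay within 0.5 of 0 in tor while their paralogs lie lower on most tor arrays.

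The effect of glucose on the ratio, averaged over both genotypes, was tested for each pair by an exact two-sided permutation of the treatment labels within each genotype (400 arrangements, smallest p 0.005). At a p adjusted over the 25 pairs 0 passed, with a smallest adjusted p of 0.075 in this exact test, and 13 had an unadjusted p under 0.05. Without tor array 1 of the group without glucose 15 passed, and without both tor arrays numbered 1 it was 13. The average over the genotypes holds the tor arrays, in which the ratios moved little.

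The effect of genotype on the ratio, averaged over both treatments and tested in the same way, passed for 16 of the 25 pairs. Among the 22 pairs without a gene below 5, of which 12 passed, the largest were those of AT2G44120 to AT3G13580 in RPL7, at -1.32, of AT3G16780 to AT4G02230 in RPL19, at -1.30, of AT3G07110 to AT3G24830 in RPL13a, at -1.02, and of AT2G01250 to AT3G13580 in RPL7, at -0.98 (exact permutation test, adjusted p 0.0268 for each). The order of the genes in a pair was set by the change in WT, and the same WT arrays enter this average, so the sign is partly fixed by the order. Without glucose alone, where these ratios overlapped between the genotypes, the differences were -0.87, -0.69, -0.54 and -0.52 in the same order of pairs. The ratio of AT2G01250 to AT2G44120 in RPL7 was higher in tor, by 0.34 (exact permutation test, adjusted p 0.025). The RPL22 gene AT3G05560 read 11.45, 11.11 and 10.86 in tor with glucose, against 12.71, 12.61 and 12.83 in WT, and 11.48, 10.87 and 10.62 in tor without glucose, against 11.83, 11.50 and 11.60 in WT. Its paralog AT1G02830 was below 5 on all arrays, so no ratio is given for this pair. It read 3.55, 3.59 and 3.46 in tor with glucose, against 3.71, 3.85 and 4.06 in WT, and 3.70, 3.63 and 3.64 in tor without glucose, against 3.65, 3.33 and 3.59 in WT.

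The genotype result rested in part on the glucose arrays. With glucose the ratio did not overlap between tor and WT in 20 pairs, and without glucose in 5, or in 17 and 3 of the 22 pairs without a gene below 5. Ratios of other gene pairs were not counted. Of single probe sets, 20.6 percent lay below and 32.8 percent above WT in tor with glucose, and 14.4 and 27.1 percent without. Of the 25 pairs 8 passed without tor array 2 of the group without glucose and 3 without array 3 of that group. With same-numbered arrays as a replicate block, an exact sign-flip test of 64 arrangements (smallest p 0.03125) passed 0 of 25, with 13 at an unadjusted p under 0.05. After adjustment over 25 pairs this smallest p passes only if most pairs reach it at once. The 0 therefore cannot show whether the result depends on the block.

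Other genes of the ribosome are given beside these 40 as counts. Of 72 other listed 60S protein genes, 44 were measured, and in WT glucose raised 22 and lowered 0, with a median change of 0.93 and the largest change in AT3G06680 (2.06 ± 0.30, adjusted p 0.000817). Of 95 listed genes of the small, 40S subunit 48 were measured and 22 rose, with a median of 0.74 and the largest change in AT4G30800 (2.48 ± 0.43, adjusted p 0.00208). Of 41 listed genes for the assembly of the 60S subunit 18 were measured and 17 rose, with a median of 1.64. The largest of these were AT3G15460 (3.57 ± 0.19), RBL (2.42 ± 0.20) and NRPA1 (2.03 ± 0.19). NRPA1 is the largest subunit of the polymerase that makes ribosomal RNA, so this list, called assembly genes below, is not limited to assembly factors. In the model that held the replicate number, 28 of the 44, 28 of the 48 and 17 of the 18 rose in WT. Of all probe sets 13.5 percent rose in WT, and 18.9 percent in the model with the replicate number. In tor 0 genes of any of these lists passed with glucose, and the medians were 0.10, 0.05 and 0.14.

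The genotypes differed with glucose in most of these genes too, with 40 of 44 other 60S genes, 42 of 48 40S genes and 17 of 18 assembly genes lower in tor (medians -1.35, -1.07 and -1.44). Of all probe sets 16 percent were lower in tor with glucose. Without glucose 9, 12 and 0 were lower and 1 of each list was higher, where 8.66 and 19.5 percent of all probe sets were. With the replicate number as a block 23, 21 and 0 were lower and 1, 1 and 4 higher, where 13.7 and 26.2 percent of all probe sets were. The assembly gene that was higher in tor without glucose was AT3G15460, at 1.49 ± 0.19 (adjusted p 0.000347). The difference of the glucose responses was called as lower in tor for 3, 6 and 14 genes, and with the block for 15, 16 and 17. Of all probe sets 3.44 percent were called so, and 8.04 percent with the block.

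In the authors' deposited table, the RMA fold changes lay within 0.05 of the differences of group means for all 40 genes in both genotypes. The dChip fold changes in the authors' deposited table had a median of 0.1 in tor and 0.6 in WT over the 40 genes. With p under 0.05, the authors' deposited table held 30 of the 40 as higher in WT by dChip and 30 by RMA, where 18.8 and 18.7 percent of all probe sets were. In tor the authors' deposited table held 0 by either method, where 0.39 and 0.61 percent of all probe sets were higher.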

How the data were processed

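Total RNA of whole seedlings was labelled with biotin and hybridised to 12 arrays, 3 per group, and the labels gave each array's group and replicate number and describe biological replicates. The deposited values are log2 expression per probe set, made by the authors with RMA per the submitters' processing notes, which give no version and do not say whether the genotypes were normalized together. A second deposited table holds, per the file headers, the authors' log2 fold changes and a p-value from dChip and from RMA for each genotype.

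The 64 control probe sets of 22810 were set aside and 22746 tested, without a filter on low values, and 1 with a missing value is no member. In the annotation 13484 carry 1 gene and 503 several, and loci were matched by gene identifier. Group means were fitted to all 12 arrays (limma 3.58.1, R 4.3.3, lmFit and eBayes), 5 contrasts were drawn, and p-values, two-sided, were adjusted by Benjamini-Hochberg over all probe sets in each (called under 0.05). Replicate numbers were not in the model. Deviations from the group means correlated at 0.199 to 0.863 over the 18 pairs of arrays with the same number, so the numbers pair the samples, and counts with a replicate block are given beside the others. Exact permutation tests of paralog ratios used Python 3.11.15. The model fit and the permutation within strata were tested on simulated data, and the steps that made shares and figures were not. Precision is limited by the 3 arrays a group, and p-values measure the spread between them.

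The counts are over all 40 genes, of which 2 are not reported here singly. For each comparison the 6 highest and 4 lowest members and calls against the main direction are named. Values per array are given for those of the 6 highest and 4 lowest in WT that are reported singly, the 8 pairs with the largest difference in WT and the 4 with the largest difference between genotypes, of which RPL22 is given without its ratio. Other lists name up to 3 called genes. Members, lists and rules were chosen with earlier results of these data known. Alternatives were a replicate block, centring of arrays, a filter at a mean of 5, a trend in eBayes, fits of the compared groups alone and leaving out arrays. Those leaving out arrays numbered 1 together, and the fit of 2 groups with a block, were added after the data were seen.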

Additional observations from a re-analysis of the deposited data

Results flagged for a closer look

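The response of AT2G32220 (RPL27) to glucose differed between the genotypes by a test of the difference itself, at -2.20 on the log2 scale, tor minus WT (limma, adjusted p 0.00314). The change with glucose was 0.30 in tor and 2.50 in WT, and each of the 3 WT arrays with glucose lay above each WT array without, while the tor arrays overlapped. The other RPL27 genes, AT3G22230 and AT4G15000, differed in the same direction by -0.79 and -0.71 and did not pass (adjusted p 0.340 and 0.280).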

How the results depend on the processing

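No member's change reversed its direction past the threshold under any alternative run. In WT, the count of genes raised by glucose was 17 to 28 under the alternatives that kept all arrays. The exception was a replicate block within each genotype, which gave 32, and leaving out 1 array gave 8 to 26. In the same order, 11.1 to 18.9, 21.8 and 9.57 to 14.7 percent of all probe sets rose. The median change of the members was 0.61 to 0.74 when 1 array was left out. In tor the count of members stayed at 0 in all of these, where at most 0.022 percent of all probe sets rose. The members' median in tor ranged from -0.093 to 0.31 when 1 array was left out. Genes with a lower response in tor than in WT numbered 1 in the fit reported, 8 with the replicate block and 25 with the block within each genotype. They numbered 7 without both tor arrays numbered 1, 16 without all 4 arrays numbered 1, and 1 to 5 when 1 array was left out. In the same order, 3.44, 8.04, 11.8, 3.25, 7.25 and 1.49 to 4.42 percent of all probe sets had a lower response in tor. The median difference of the members' responses was -0.54 with arrays centred on their medians and -0.78 to -0.39 when 1 array was left out. Genes lower in tor without glucose numbered 13 in the fit reported, 26 with the replicate block and 31 with arrays centred. A fit of the groups compared alone gave 4, and that fit with a replicate block 22. The count was 34 without both tor arrays numbered 1 and 31 without all 4 arrays numbered 1. It was 2 to 30 when 1 array was left out, with medians of -0.82 to -0.43. In the same order, 8.66, 13.7, 20.9, 6.08, 11.3, 11.9, 12.1 and 5.29 to 10.1 percent of all probe sets were lower in tor. With glucose the count of members was 30 to 37 and their median -1.27 to -1.0 when 1 array was left out. In those fits 11.8 to 16.9 percent of all probe sets were lower in tor. Paralog ratios that passed for glucose numbered 0, or 13 without both tor arrays numbered 1 and 0 to 15 when 1 array was left out. Those that passed for genotype numbered 16, or 3 to 16 when 1 array was left out. The sign-flip test with the replicate block passed 0. Its smallest p, 0.03125, passes the adjustment only if most pairs reach it, so this 0 cannot show whether the result depends on the block. The causes were not tested. Taking the probe set with the lowest mean was not run, because 0 members have several. The genes below a mean of 5 are close to the background of the arrays. Cross-hybridisation between paralogs could not be examined with these files.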

Other observations

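Markers of other cell types differed between the groups as follows. Of the dividing-cell genes, ICU2, a subunit of DNA polymerase alpha, changed with glucose by 2.42 ± 0.30 in WT (limma, adjusted p 0.000336), and PRL, a subunit of the MCM helicase, by 2.41 ± 0.47 (adjusted p 0.00411). With glucose ICU2 and PRL were lower in tor than in WT, by -3.17 and -2.82 on the log2 scale, while AUR1, AUR2 and AUR3 did not pass in either comparison. With the replicate number as a block all 5 measured dividing-cell genes were lower in tor with glucose, and 3 of the 5 without glucose, where 0 were without the block. The root hair expansin EXPA7 was lower in tor in both treatments, at -2.20 with glucose and -2.01 without. EXPA18, the other root marker measured, averaged 5.47 in tor and 5.14 in WT without glucose, a difference of 0.33 ± 0.25 that did not pass (adjusted p 0.368). With glucose it was lower in tor by -0.71 (adjusted p 0.0458), and in WT it rose with glucose by 0.85 ± 0.25 (adjusted p 0.0330). Of the shoot markers, LHCB4.2 was higher in tor in both treatments (0.80 with glucose and 0.70 without) and RCA lower (-0.51 in each). The part of these differences in the values of the ribosomal protein genes was not tested.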
